A study of Homo sapiens with 18 samples.

Results

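The hypoxia response and glycolysis genes described here are 42 genes taken by symbol from the 18 deposited tables of gene abundances, in each of which every one was found. The tables list 60675 gene IDs, of which 18269 passed a filter of at least 1 TPM in at least 3 libraries, TPM being the share of transcripts that belong to a gene after correction for length, and all 42 members were among them. The set holds the hypoxia-inducible factor (HIF) alpha subunit genes HIF1A and EPAS1, 15 glycolytic enzymes, and genes of glucose and lactate transport, pH control, secreted signals, mitophagy and collagen modification. The study treated U87 cells, an established human glioblastoma line used without genetic modification, for 24 h with a rexinoid at 100 nM or with its ethanol vehicle. A rexinoid is a ligand of the retinoid X receptors. The groups were bexarotene, A34, A41, A80, A98 and ethanol, with 3 libraries each and 18 in all. Bexarotene is a rexinoid in clinical use, and the other compounds are known here by code only. Whether a group's libraries stem from different cultures is not in the labels. The p-values therefore rest on differences among libraries that could be technical.

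Cells that lack oxygen stabilise the HIF alpha subunits, which are otherwise hydroxylated by the EGLN enzymes and destroyed. The stabilised subunit pairs with ARNT, binds promoters and enhancers at the core letters ACGTG or GCGTG, and raises transcription of glucose transporters, most glycolytic enzymes, lactate export, VEGFA and the EGLN enzymes themselves. The regulation of HIF1A lies mainly in its protein, so its mRNA need not move with its targets. Glioblastoma is known for hypoxic regions and for a high rate of glycolysis.

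RNA was depleted of ribosomal RNA, primed at random and sequenced as read pairs. The ratio of coverage to FPKM implied 1.31 to 3.89 Gb of aligned bases a library, with a median of 2.08 Gb. The ribosomal RNA share of TPM was 44.9% in bexarotene replicate 1, 56.1% in A41 replicate 2 and 35.5% in ethanol replicate 2, and at most 4.43% in the other 15 libraries. Since TPM is a share, each library was divided by a size factor, and levels below are this scaled TPM, which is per transcript length. Values of 3 libraries stand in the order of replicates 1, 2 and 3. As a check of the label, the mesenchymal glioma genes VIM, CD44 and FN1 averaged 4059, 1015 and 299 scaled TPM over the 18 libraries. Of the astrocyte genes examined, GFAP averaged 0.788, ALDH1L1 0.475 and SLC1A2 0.434, and AQP4 and S100B were near 0. SLC1A3, also on that list, averaged 20.9 scaled TPM. Leukocyte markers summed to at most 0.417, endothelial markers to at most 1.07 and epithelial markers to at most 1.63 scaled TPM in any library.

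Promoters of the 4 members with the largest mean change over the rexinoids among those with a RefSeq entry are shown, so that the letters can be read beside their values below. NDRG1 and HILPDA had larger mean changes and are not shown. The 250 bases before each RefSeq start (build GRCh38.p14) are written 5′ to 3′ on the gene's strand, with matches to ACGTG or GCGTG on either strand in capitals. The start in RefSeq need not be the start in the deposited tables. EGLN3 lies on the minus strand, chr14:33951075-33951324. CA9 lies on the plus strand, chr9:35673678-35673927. PFKFB4 lies on the minus strand, chr3:48556804-48557053. MXI1 lies on the plus strand, chr10:110207355-110207604.
EGLN3: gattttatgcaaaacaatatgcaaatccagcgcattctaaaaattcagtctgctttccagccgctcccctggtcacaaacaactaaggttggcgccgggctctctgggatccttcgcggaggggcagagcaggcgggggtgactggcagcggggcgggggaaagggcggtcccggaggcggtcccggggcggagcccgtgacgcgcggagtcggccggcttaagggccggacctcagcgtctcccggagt
CA9: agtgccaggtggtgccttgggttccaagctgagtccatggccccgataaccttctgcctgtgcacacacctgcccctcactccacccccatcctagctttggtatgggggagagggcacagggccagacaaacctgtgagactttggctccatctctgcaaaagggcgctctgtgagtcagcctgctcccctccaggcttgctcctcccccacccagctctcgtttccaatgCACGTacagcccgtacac
PFKFB4: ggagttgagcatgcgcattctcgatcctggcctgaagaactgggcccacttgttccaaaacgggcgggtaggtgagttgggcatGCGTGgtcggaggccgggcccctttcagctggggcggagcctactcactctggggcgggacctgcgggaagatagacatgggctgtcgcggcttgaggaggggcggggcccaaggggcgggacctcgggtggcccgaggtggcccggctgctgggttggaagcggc
MXI1: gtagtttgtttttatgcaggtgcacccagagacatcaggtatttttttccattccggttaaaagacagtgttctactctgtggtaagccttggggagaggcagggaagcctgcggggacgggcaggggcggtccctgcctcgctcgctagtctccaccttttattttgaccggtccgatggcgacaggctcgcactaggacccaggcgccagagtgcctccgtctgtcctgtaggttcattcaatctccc

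CA9 had 1 match, ACGTG on the opposite strand, read as CACGT here, 18 bases before the start. PFKFB4 had 1 match, GCGTG on its own strand, 166 bases before the start. The EGLN3 and MXI1 windows held neither word. RefSeq promoters were matched for 37 of the 42 members, and HILPDA, SLC2A3, VEGFA, NDRG1 and BNIP3L were not among them. At least 1 of the words stood in 25 of the 37 windows (67.6%), against 11763 of 27305 windows of the same length over all genes (43.1%). ACGTG stood in 43.2% of the members' windows and 18.7% of all windows, and GCGTG in 40.5% and 31.9%. A match of these short words is a description of the letters and not evidence of binding.

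The first question is whether the members differed between each rexinoid and ethanol. Most members had higher mean levels with every rexinoid, with A34 and A80 furthest from ethanol. With treatment alone in the model, no member passed the threshold of limma (adjusted p under 0.05 over the 18269 genes). The share of all tested genes called was 0.0602% for bexarotene, 0.0766% for A34, 0.744% for A41, 0.0493% for A80 and 0.0383% for A98. With the replicate number added as a block, 18 members passed for A34, 16 for A80, 1 for A41 and 0 for bexarotene and A98. Of all tested genes 0.843%, 0.624%, 0.695%, 0.0712% and 0.0547% were called higher in that order. The labels do not say that libraries of the same number belong together. The block also takes the shift between numbers as equal in every group. The members' median log2 difference of replicate 1 from replicate 3 ran from 0.23 with ethanol to 0.77 with A80 and 0.79 with A34. Whether that shift differs between groups was not tested. Fold changes are on log2(scaled TPM + 1), which understates those of scarce genes. The median log2 fold change of the members was 0.26 for bexarotene, 0.63 for A34, 0.16 for A41, 0.64 for A80 and 0.42 for A98, while that of all tested genes lay between -0.011 and 0.0013. All these comparisons share the 3 ethanol libraries. Without replicate 1 of the compound's own group the median was 0.17 for bexarotene, 0.37 for A34, -0.0041 for A41 and 0.41 for A80. For A98 it stayed between 0.33 and 0.48 whichever replicate was left out. With TPM as deposited the median was 0.056 for bexarotene and -0.16 for A41.

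At an unadjusted limma p under 0.05, 2 members were higher for bexarotene, 34 for A34, 6 for A41, 34 for A80 and 12 for A98. The same held for 3.11%, 5.57%, 5.39%, 5.36% and 3.39% of all tested genes in that order of compounds. PFKM was the 1 member lower at that level, with A41, while 2.69%, 5.13%, 5.04%, 4.08% and 3.26% of all tested genes were lower in the same order. The smallest adjusted p of any member was 0.832 for bexarotene, 0.197 for A34, 0.320 for A41, 0.122 for A80 and 0.660 for A98.

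**Figure D1:**
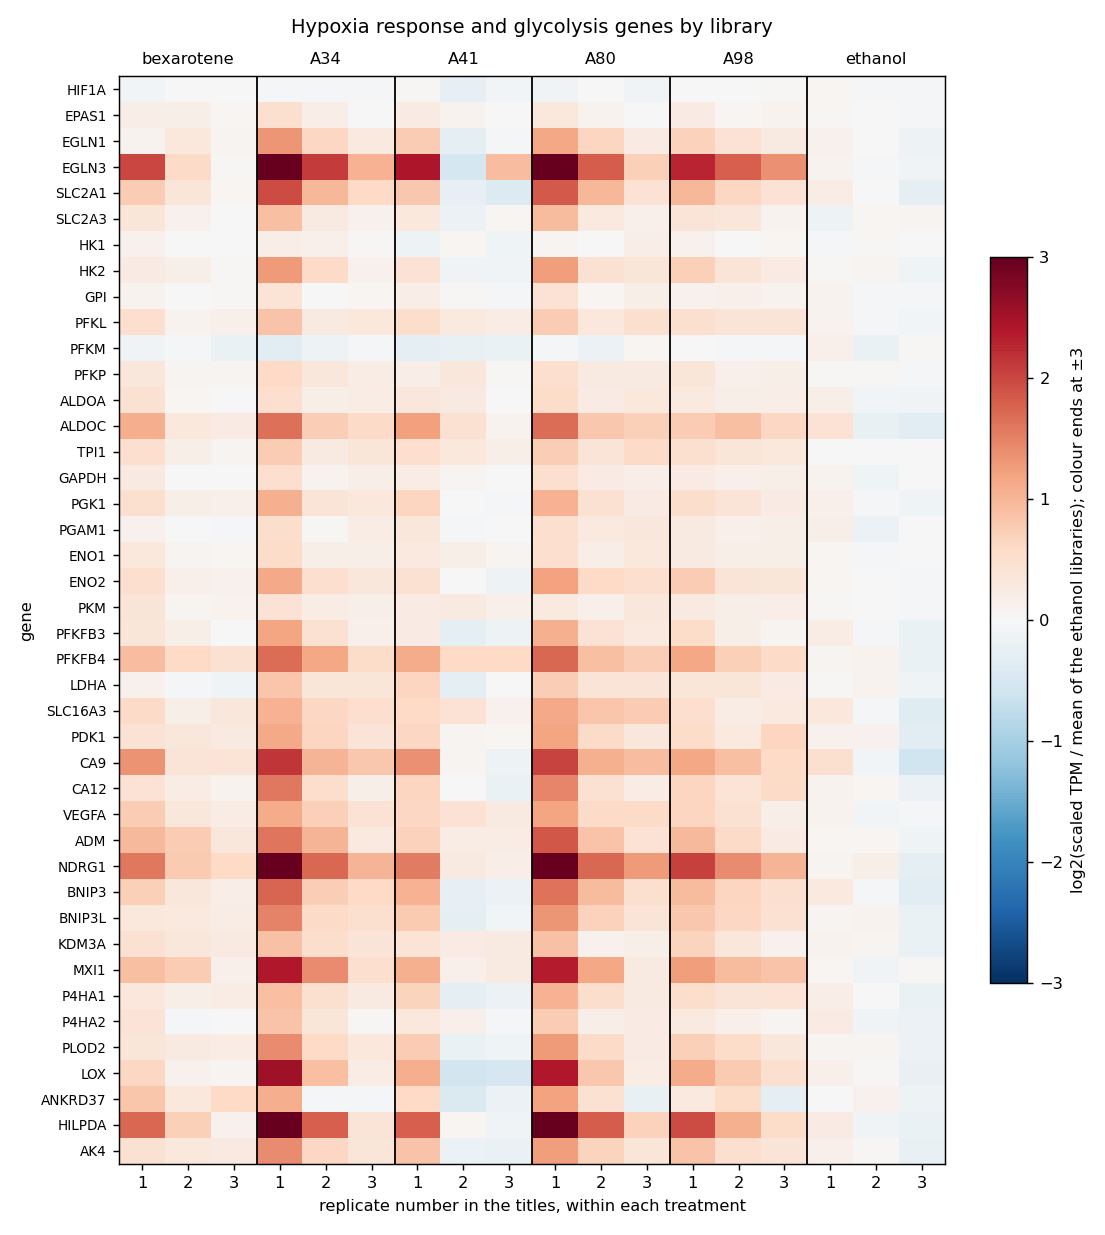
Log2 of the scaled TPM of each of the 42 genes in each of the 18 libraries over that gene's mean in the 3 ethanol libraries (colour ends at ±3), with treatments as blocks and replicate numbers of the titles within them. Replicate 1 of A34 and of A80 hold the highest values, and NDRG1, EGLN3 and HILPDA the widest range of colour.

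The libraries themselves were also compared without a model. All 3 libraries lay above all 3 ethanol libraries for 17 members in the bexarotene group, 33 in A34, 10 in A41, 35 in A80 and 33 in A98. Among all tested genes this was so for 6.66%, 7.88%, 7.91%, 8.40% and 8.72%. All 15 rexinoid libraries lay above all ethanol libraries for 8 members, ADM, KDM3A, MXI1, NDRG1, PFKFB4, PKM, TPI1 and VEGFA, and for 0.821% of all tested genes. Without replicate 1 of every group, which leaves 2 libraries against 2, the counts were 35 with bexarotene (17.6% of all tested genes), 17 with A41 (21.7%) and 16 over all rexinoids (2.56%). The counts with the other 3 compounds were 38 with A34 (18.5%), 38 with A80 (20.4%) and 39 with A98 (20%).

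The mRNA of HIF1A, the oxygen-regulated alpha subunit (chr14:61695513-61748259, plus strand), was close to level. It stood at 275, 293 and 289 with bexarotene, 284, 281 and 282 with A34, 300.0, 245 and 275 with A41, 271, 292 and 270.4 with A80 and 294, 294 and 299.7 with A98, against 302, 285 and 286 scaled TPM with ethanol. No rexinoid library exceeded the highest ethanol library, and A41 replicate 2, a library rich in ribosomal RNA, was the lowest of all. The log2 fold changes lay between -0.09 with A41 and 0.02 with A98, each with an SE of 0.07. EPAS1, which encodes the second alpha subunit (chr2:46293667-46386697, plus strand), had 89.5, 87.8 and 81.01 with bexarotene, 109, 88.5 and 77.5 with A34, 91.6, 83.2 and 78.2 with A41, 96.9, 83.9 and 78.2 with A80 and 91.7, 80.99 and 82.8 with A98, against 79.8, 77.9 and 74.8 scaled TPM with ethanol. Its bexarotene and A98 libraries all lay above ethanol, while each of the other groups had 1 library within the ethanol range. Its log2 fold change was 0.23 ± 0.11 (SE) with A34, the largest of the 5, with an adjusted p of 0.481, and 0.095 without A34 replicate 1.

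The EGLN enzymes are the prolyl hydroxylases that mark HIF alpha for destruction, and EGLN1 and EGLN3 are themselves HIF targets. EGLN3 was scarce, at 4.32, 1.597 and 1.11 with bexarotene, 21.8, 4.603 and 2.21 with A34, 5.76, 0.743 and 2.05 with A41, 18.2, 3.83 and 1.78 with A80 and 5.24, 3.75 and 2.78 with A98, against 1.17, 1.06 and 1.01 scaled TPM with ethanol. A34 replicate 1 and A80 replicate 1 stood far above every other library, and A41 replicate 2 below every ethanol library. The log2 fold change was 1.84 ± 0.71 (SE, adjusted p = 0.382) with A34 and 1.61 ± 0.71 (adjusted p = 0.506) with A80. Without replicate 1 of the group these were 1.03 with A34 and 0.82 with A80. SPTSSA overlaps EGLN3 on the same strand at 183% of its level. The 1 annotated EGLN3 pseudogene carried 0% to 67.4% of the EGLN3 level, at a mean of 0.102 scaled TPM. The EGLN3 level is therefore uncertain. EGLN1 averaged 34.4 ± 2.95 for bexarotene, 53.6 ± 20.5 for A34, 35.4 ± 14.4 for A41, 50.4 ± 16.1 for A80 and 42.6 ± 6.17 for A98, against 30.5 ± 2.999 scaled TPM with ethanol (SD, n = 3 each).

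Of the glucose transporters, SLC2A1, the main transporter of glucose into glioma cells (chr1:42925353-42958893, minus strand), had the higher levels, with 67.6, 50.7 and 41.2 with bexarotene, 153, 79.5 and 59.6 with A34, 69.00, 33.4 and 29.6 with A41, 142, 78.9 and 53.1 with A80 and 79.3, 60.7 and 53.8 with A98, against 46.2, 40.2 and 32.6 scaled TPM with ethanol. Every A34, A80 and A98 library exceeded every ethanol library, while bexarotene replicate 3 and A41 replicate 2 lay within the ethanol range and A41 replicate 3 below it. The log2 fold change was 1.17 ± 0.38 (SE, adjusted p = 0.288) with A34 and 0.06 ± 0.38 (adjusted p = 0.978) with A41. The A41 value was -0.31 without A41 replicate 1, and -0.27 with TPM as deposited. SLC2A3, a transporter of high glucose affinity, had 26.4, 22.2 and 20.7 with bexarotene, 37.9, 24.7 and 22.4 with A34, 25.3, 18.1 and 21.1 with A41, 39.6, 25.04 and 22.9 with A80 and 26.8, 25.9 and 21.97 with A98, against 18.3, 21.4 and 21.6 scaled TPM with ethanol. Its A34, A80 and A98 libraries also lay above ethanol without overlap, by smaller amounts, with a log2 fold change of 0.46 ± 0.20 (SE) with A80, and 0.22 without A80 replicate 1.

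The most abundant members were GAPDH, LDHA, ENO1 and PKM in that order. The median log2 fold change of the 15 glycolytic enzymes over the rexinoids, 0.26, was smaller than that of each other role but the HIF alpha subunits, at 0.057. GAPDH, which oxidises glyceraldehyde phosphate and was the highest member in every group, had 5371, 4449 and 4429 with bexarotene, 6268, 4796 and 5055 with A34, 5144, 4737 and 4421 with A41, 6274, 5263 and 5137 with A80 and 5280.4, 4952 and 5059 with A98, against 4779, 4079 and 4471 scaled TPM with ethanol. The A34, A80 and A98 libraries lay above ethanol and the others overlapped it, and no log2 fold change exceeded 0.32, the value with A80 (SE 0.14). Its 65 annotated pseudogenes together carried 2.996% to 6.68% of its level, so some of its reads may be shared. PGK1, the first of the enzymes of glycolysis to yield ATP (chrX:77910739-78129295, plus strand), had 371, 304 and 299 with bexarotene, 564, 349 and 331 with A34, 419, 267 and 259 with A41, 552, 369 and 316 with A80 and 388, 348 and 317 with A98, against 299, 259.8 and 244 scaled TPM with ethanol. Every A41 library but replicate 1 lay within the ethanol range, and all the other rexinoid libraries above it, by a narrow margin for bexarotene replicate 3. HK2, the inducible hexokinase that traps glucose in the cell, had 64.1, 60.99 and 56.1 with bexarotene, 133, 81.4 and 59.7 with A34, 73.4, 50.1 and 50.8 with A41, 129, 75.1 and 69.8 with A80 and 89.6, 70.9 and 64.5 with A98, against 55.4, 57.6 and 49.97 scaled TPM with ethanol. Its A34, A80 and A98 libraries did not overlap ethanol, and its log2 fold change was 0.66 ± 0.25 (SE) with A34 and 0.68 ± 0.25 with A80. Without replicate 1 of the group these were 0.36 with A34 and 0.41 with A80.

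Isozymes of the same step differed in size of change, though these differences between genes were not tested. The mean log2 fold change of the 5 rexinoids was 0.40 for HK2 (0.22 without the rexinoid libraries numbered 1) and 0.05 for the housekeeping hexokinase HK1. It was 0.80 for the aldolase ALDOC, at 16.6 scaled TPM in ethanol, and 0.26 for ALDOA, at 1183. The neuronal enolase ENO2 had 0.46 and ENO1 0.24. Among the phosphofructokinases, PFKL had 0.40, PFKP 0.27 and the muscle form PFKM -0.12. SENP1, on the opposite strand, overlaps PFKM at 36.3% of its level, and the strand handling of the counts is not given. GPI, TPI1, PGAM1 and PKM had 0.13, 0.40, 0.20 and 0.23. Of the 15 enzymes, 14 had positive mean changes.

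PFKFB3 and PFKFB4 control the level of a fructose bisphosphate that activates phosphofructokinase, and so help to set the pace of glycolysis. PFKFB4 (chr3:48517684-48562015, minus strand), whose promoter is printed above, had 60.95, 48.5 and 44.04 with bexarotene, 101, 71.6 and 46.5 with A34, 69.3, 48.5 and 47.8 with A41, 105, 59.8 and 52.8 with A80 and 71.6, 51.8 and 47.2 with A98, against 33.6, 34.2 and 27.6 scaled TPM with ethanol. All 15 rexinoid libraries lay above all ethanol libraries, and replicate 1 was the highest in each rexinoid group. UCN2 overlaps PFKFB4 on the same strand at 11.3% of the PFKFB4 level. The log2 fold change was 1.11 ± 0.27 (SE, adjusted p = 0.197) with A34, 1.10 ± 0.27 (adjusted p = 0.240) with A80 and 0.76 ± 0.27 (adjusted p = 0.320) with A41. With the replicate number as a block, PFKFB4 passed with A41 (limma adjusted p = 0.0190), the 1 member to do so there, and 0.695% of all tested genes were called higher. Under the same block it also passed with A34 (limma adjusted p = 0.0027) and A80 (limma adjusted p = 0.0034). There 18 and 16 members passed, and 0.843% and 0.624% of all tested genes were called higher. PFKFB3 had 35.5, 31.2 and 27.1 with bexarotene, 62.8, 37.6 and 30.5 with A34, 32.8, 22.3 and 24.9 with A41, 57.7, 37.3 and 33.9 with A80 and 40.1, 30.8 and 29.1 with A98, against 31.9, 26.6 and 24.1 scaled TPM with ethanol. Only its A80 libraries all lay above ethanol, and the A41 mean was the 1 rexinoid mean below ethanol, with a log2 fold change of -0.05 ± 0.24 (SE).

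LDHA, which reduces pyruvate to lactate, PDK1, which holds pyruvate back from the citric acid cycle, and SLC16A3, which exports lactate, had their highest means with A34 and A80. LDHA had 2517, 2195 and 2102 with bexarotene, 4091, 2943 and 2970.3 with A34, 3580.4, 1895 and 2283 with A41, 3853, 3035 and 3032 with A80 and 2958, 2987 and 2753 with A98, against 2352, 2461 and 2100.4 scaled TPM with ethanol. The A34, A80 and A98 libraries lay above ethanol, A41 replicate 2 below it, and bexarotene overlapped it, with log2 fold changes of 0.52 ± 0.20 (SE) with A34 and -0.02 ± 0.20 with bexarotene. PDK1 had 13.6, 12.8 and 12.2 with bexarotene, 22.2, 15.9 and 13.3 with A34, 15.5, 10.7 and 10.5 with A41, 23.05, 15.1 and 12.9 with A80 and 14.9, 12.4 and 15.97 with A98, against 11.2, 11.1 and 8.17 scaled TPM with ethanol. Every group but A41 lay above ethanol, and A98 was the 1 rexinoid group in which replicate 3 was the highest. SLC16A3 had the smallest adjusted p of any member in a single comparison, at 0.122 with A80 (log2 fold change 0.92 ± 0.18, SE), with means of 68.6 ± 10.1 with A80 and 36.2 ± 8.67 scaled TPM with ethanol (SD, n = 3 each). CSNK1D overlaps it on the opposite strand at 101% of its level.

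**Figure D2:**
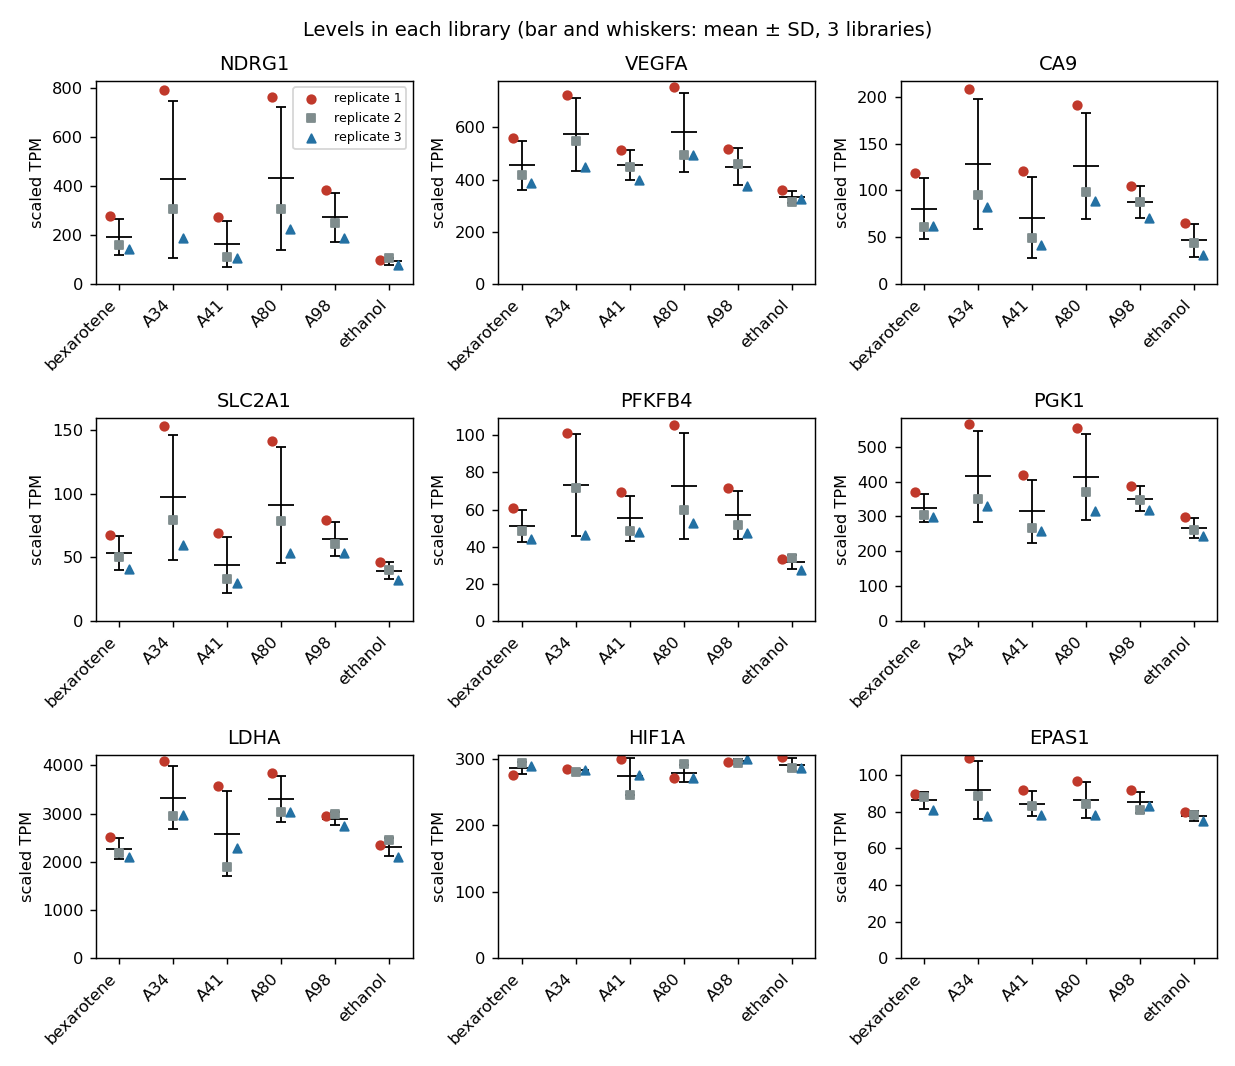
Scaled TPM of 9 of the genes in each library, by treatment, with replicate number as colour and shape, and mean ± SD over the 3 libraries as bar and whiskers. Replicate 1 is the highest library of A34 and of A80 for the 8 genes other than HIF1A, which stays between 245 and 302.

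The carbonic anhydrases CA9 and CA12 sit on the cell surface and buffer the acid that glycolysis produces. CA9 (chr9:35673918-35681159, plus strand) had 118, 61.2 and 62.02 with bexarotene, 208, 95.4 and 82.1 with A34, 120.5, 49.8 and 41.9 with A41, 192, 98.5 and 88.4 with A80 and 105, 88.00 and 70.2 with A98, against 65.2, 44.01 and 30.9 scaled TPM with ethanol. The A34, A80 and A98 libraries exceeded all ethanol libraries, and replicate 1 was the highest in every group, ethanol included. Replicates 2 and 3 of bexarotene and of A41 lay within the ethanol range. The log2 fold change was 1.38 ± 0.44 (SE, adjusted p = 0.276) with A34, 1.39 ± 0.44 (adjusted p = 0.365) with A80 and 0.94 ± 0.44 (adjusted p = 0.748) with A98. CA12 had log2 fold changes of 0.25, 0.75, 0.15, 0.71 and 0.54 with bexarotene, A34, A41, A80 and A98 in that order.

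VEGFA, the main angiogenic factor, and ADM, a vasodilator peptide, are secreted, and both lay above ethanol in all 15 rexinoid libraries. VEGFA (chr6:43770184-43786487, plus strand) had 561, 418 and 386 with bexarotene, 724, 549 and 447 with A34, 515, 449 and 400.4 with A41, 756, 494 and 496 with A80 and 516, 459 and 376 with A98, against 359, 315 and 325 scaled TPM with ethanol. The gap to ethanol was narrow for A98 replicate 3 and wide for replicate 1 of A34 and A80. Its log2 fold change was 0.76 ± 0.20 (SE, adjusted p = 0.212) with A34 and 0.78 ± 0.20 (adjusted p = 0.249) with A80. ADM had 59.3, 51.1 and 37.8 with bexarotene, 91.3, 60.6 and 36.9 with A34, 48.8, 34.9 and 35.3 with A41, 110.4, 54.8 and 40.7 with A80 and 59.02, 44.7 and 35.7 with A98, against 31.2, 31.5 and 27.5 scaled TPM with ethanol. Replicate 1 was the highest library of each rexinoid group, and the log2 fold change with A80 was 1.04 ± 0.33 (SE, adjusted p = 0.372), and 0.64 without A80 replicate 1.

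NDRG1, a stress-responsive gene (chr8:133237175-133302022, minus strand), and the mitophagy receptors BNIP3 and BNIP3L had larger differences than most of the enzymes. NDRG1 had 277, 160.1 and 142 with bexarotene, 792, 306 and 188 with A34, 273, 112 and 106 with A41, 763, 307 and 224 with A80 and 383, 248 and 188 with A98, against 97.7, 105 and 76.7 scaled TPM with ethanol. Replicate 1 of A34 and of A80 stood far above every other library, and the lowest A41 library barely exceeded the highest ethanol library. Its log2 fold change was 1.94 ± 0.52 (SE, 95% interval 0.83 to 3.05, adjusted p = 0.218) with A34 and 2.01 ± 0.52 (95% interval 0.90 to 3.12, adjusted p = 0.250) with A80. BNIP3 had 148, 115 and 105 with bexarotene, 303, 152 and 137 with A34, 188, 76.6 and 80.2 with A41, 282, 174 and 126 with A80 and 174, 141 and 126 with A98, against 110.4, 88.2 and 73.4 scaled TPM with ethanol. Bexarotene replicate 3 and A41 replicates 2 and 3 lay within the ethanol range, and the A34, A80 and A98 libraries above it. Its 39 annotated pseudogenes carried 8.95% to 28.9% of its level, so the split of reads is uncertain. BNIP3L averaged 174 ± 71.7 with A34 and 166 ± 56.5 with A80, against 92.2 ± 10.8 scaled TPM with ethanol (SD, n = 3 each). PNMA2 overlaps BNIP3L on the opposite strand at 26.6% of the BNIP3L level.

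Both members that act on chromatin or transcription lay above ethanol in all 15 rexinoid libraries. MXI1, which opposes MYC, averaged 11.2 ± 2.84 for bexarotene, 22.4 ± 14.1 for A34, 10.6 ± 3.86 for A41, 20.5 ± 14.5 for A80 and 14.7 ± 2.21 for A98, against 7.201 ± 0.441 scaled TPM with ethanol (SD, n = 3 each). The A34 and A80 libraries spread the most, with replicate 1 far above replicate 3. KDM3A, a histone demethylase that needs oxygen, had log2 fold changes from 0.30 with A41 to 0.58 with A34.

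The collagen enzymes P4HA1, P4HA2, PLOD2 and LOX hydroxylate or cross-link collagen. P4HA1, a catalytic subunit of prolyl hydroxylase for collagen, had 70.2, 63.2 and 64.8 with bexarotene, 104, 77.7 and 67.6 with A34, 88.3, 45.5 and 49.4 with A41, 115, 80.4 and 67.1 with A80 and 80.3, 73.8 and 73.9 with A98, against 64.1, 55.1 and 48.7 scaled TPM with ethanol. The A34, A80 and A98 libraries lay above ethanol and A41 replicate 2 below it, so the A41 group spanned the ethanol range. LOX ranged from 44.1 to 217 scaled TPM with A34 and from 43.96 to 199 with A80, against 32.4 to 41.9 with ethanol. SRFBP1 overlaps LOX on the opposite strand at 26.6% of the LOX level. PLOD2 and P4HA2 had mean log2 fold changes over the 5 rexinoids of 0.49 and 0.26.

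Of the remaining hypoxia-inducible members, HILPDA coats lipid droplets, AK4 is a mitochondrial adenylate kinase and ANKRD37 is an ankyrin repeat protein. HILPDA ranged from 18.6 to 197 with A34 and from 22.97 to 205 with A80, against 12.4 to 16.8 scaled TPM with ethanol. Its log2 fold change with A80, 2.07 ± 0.80 (SE, adjusted p = 0.442), was the largest of any member. ANKRD37, the lowest member beside EGLN3, had 4.59, 3.25 and 3.92 with bexarotene, 5.48, 2.500 and 2.48 with A34, 3.94, 1.93 and 2.28 with A41, 5.96, 3.54 and 2.22 with A80 and 3.17, 3.82 and 2.12 with A98, against 2.63, 2.81 and 2.33 scaled TPM with ethanol. Only its bexarotene libraries all lay above ethanol, and UFSP2, at 452% of its level, overlaps it on the opposite strand. AK4 had a mean log2 fold change of 0.53, and its 6 annotated pseudogenes carried 29.4% to 60.9% of its level.

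**Figure D3:**
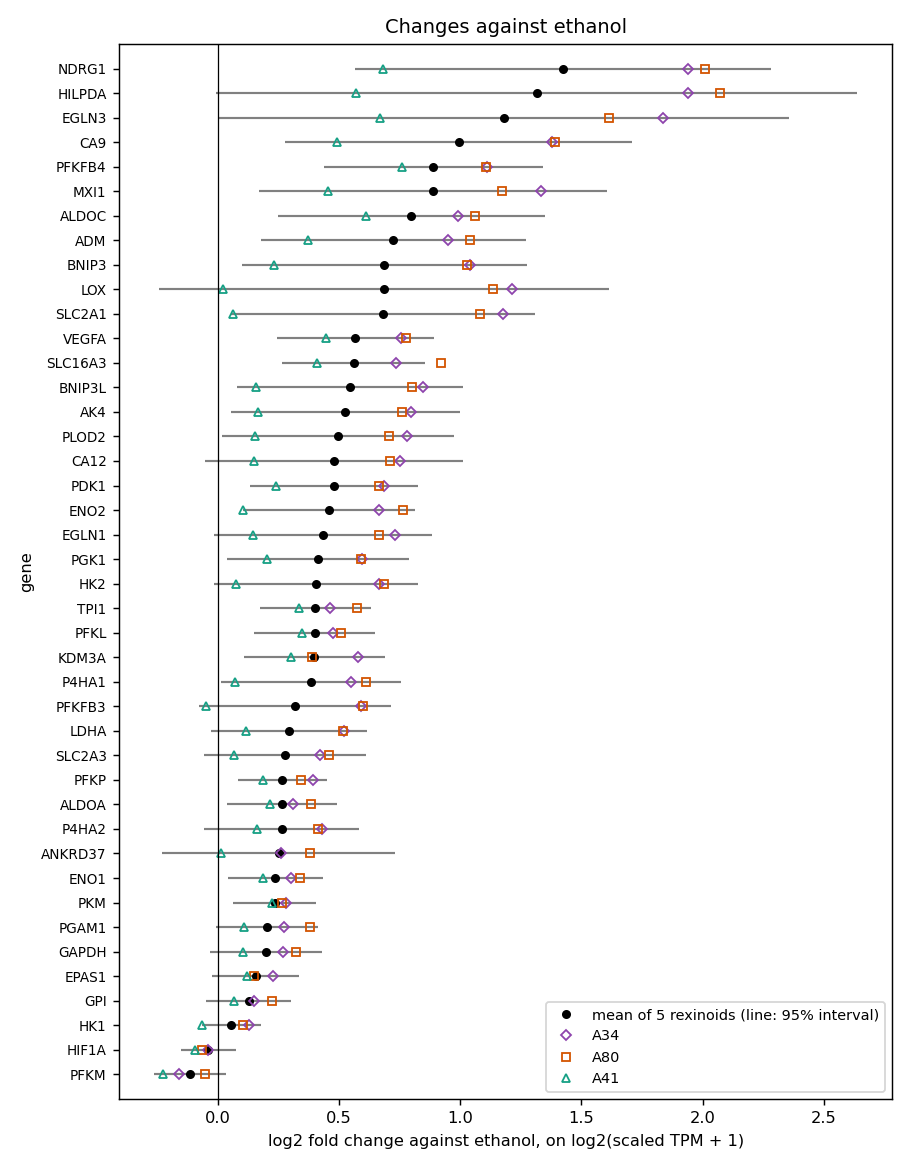
Log2 fold change against ethanol of each of the 42 genes, on log2(scaled TPM + 1), for the mean of the 5 rexinoids (black, with its 95% interval) and for A34, A80 and A41, sorted by the mean. A34 and A80 lie to the right of A41 for every gene, and HIF1A and PFKM have means below 0.

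As a class, the 5 rexinoids together were set against ethanol in one contrast. No member passed (0.208% of all tested genes did), and 25 members had an unadjusted limma p under 0.05, all of them higher (5.58% of all tested genes were higher at that level and 4.7% lower). With the replicate number as a block, 13 members passed, and 0.728% of all tested genes were called higher. The median log2 fold change of the members was 0.41, and 40 of the 42 were positive, as were 48.4% of all tested genes. NDRG1 had the largest, 1.42 ± 0.40 (SE, 95% interval 0.57 to 2.28, adjusted p = 0.231), and PFKFB4 the smallest adjusted p, 0.142, at 0.89 ± 0.21. Without the 5 rexinoid libraries numbered 1, the median was 0.26 and 1 member passed, NDRG1 (log2 fold change 1.01, adjusted p = 0.0375), as did 0.23% of all tested genes. Without replicate 1 of all 6 groups, 2 members passed, ALDOC (log2 fold change 0.79, adjusted p = 0.0399) and CA9 (0.93, adjusted p = 0.0495), as did 0.104% of all tested genes.

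**Figure D4:**
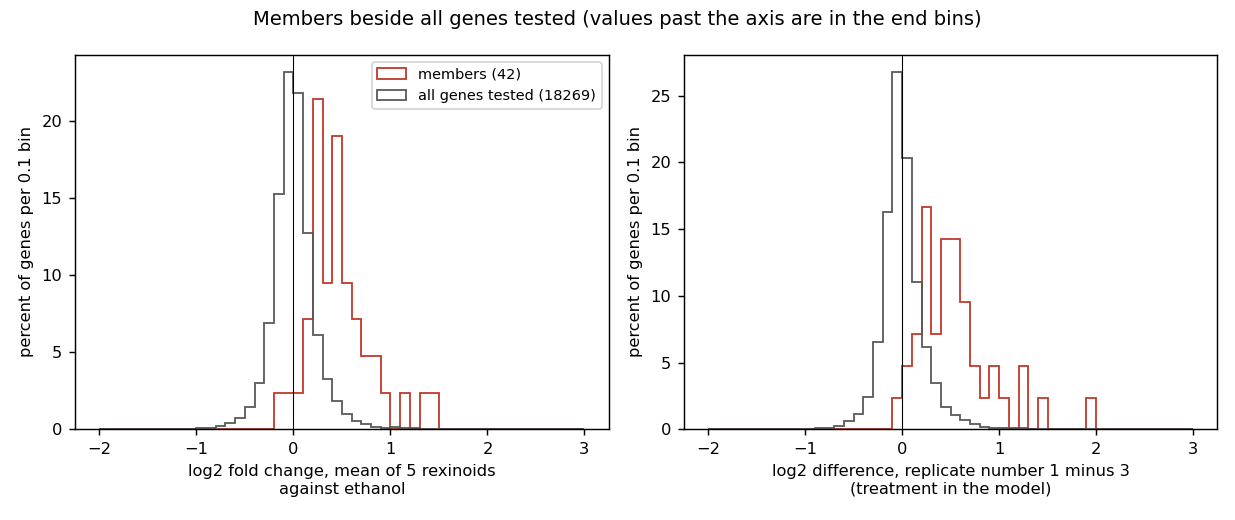
Share of genes per 0.1 of log2 difference for the 42 members (red) and all 18269 tested genes (grey), for the mean of the 5 rexinoids against ethanol (left) and for replicate number 1 minus 3 with treatment in the model (right). The medians of the members are 0.41 and 0.48, and those of all tested genes are -0.0060 and -0.017.

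The rexinoids were also compared with each other, since dose and time were the same. Over the 10 pairs no member passed in limma, while of all tested genes 0.126% did for A98 against A41, 0.12% for A80 against A41, 0.109% for A41 against bexarotene, 0.0712% for A41 against A34, 0.00547% for each other pair with A98 and 0% for A34 and A80 against bexarotene and A80 against A34. All 42 members were higher on average with A80 than with A41 (50.3% of all tested genes were), with a median log2 difference of 0.41. At an unadjusted limma p under 0.05 this was 11 members and 4.14% of all tested genes. All 42 were lower with A41 than with A34 (median -0.39), 11 of them at that level (3.77% of all tested genes), and in the other 8 pairs at most 5 members reached it (1.53% to 4.39% of all tested genes in a direction). Of all tested genes 50.4% were higher with A41 than with A34. These pairs share the A41 libraries. With the replicate number as a block, 6 members passed for A80 against A41 and 2 for A41 against A34. Of all tested genes 0.4% and 0.164% were called there. A80 and A34 had a median difference of 0.00081, with 21 members on each side (50.5% of all tested genes were higher with A80). For NDRG1 the log2 difference of A80 from A41 was 1.33 ± 0.52 (SE, 95% interval 0.22 to 2.44) and that of A80 from A34 was 0.07 ± 0.52 (95% interval -1.04 to 1.17). For SLC2A1 the difference of A41 from A34 was -1.12 ± 0.38 (SE, 95% interval -1.92 to -0.31). Adjusted over the 10 pairs for each of the 19 genes given by library, the smallest limma p was 0.0757, for LDHA with A34 and with A80 against bexarotene. The interval of LDHA for A34 against bexarotene was 0.12 to 0.96 on the log2 scale, so the pairs that did not pass are not shown to act alike.

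The members also differed by the replicate number in the titles, compared over all 6 treatments with treatment in the model. Most carried higher levels in the libraries numbered 1, above all HILPDA, EGLN3, NDRG1, LOX and CA9. Number 1 was higher than number 3 for 28 of the 42 members and lower for none (limma, adjusted p under 0.05), against 1.51% of all tested genes higher and 0.405% lower. The median log2 difference was 0.48 for the members and -0.017 for all tested genes. The F test over the 3 numbers called 18 members (0.985% of all tested genes). Number 1 exceeded number 2 for 1 member, CA9 (0.0219% of all tested genes), and number 2 against number 3 gave 0 calls among members and all tested genes. At an unadjusted limma p under 0.05, number 1 exceeded number 2 for 38 members (5.61% of all tested genes), and 4 members were higher in number 2 than in number 3 (2.74% of all tested genes) and 0 lower. The labels give the numbers no meaning.

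HILPDA had the largest difference of number 1 from number 3, at 1.93 ± 0.29 on the log2 scale (SE, adjusted p = 0.00528). EGLN3 followed at 1.49 ± 0.32 (adjusted p = 0.0316), NDRG1 at 1.25 ± 0.18 (adjusted p = 0.0048) and LOX at 1.25 ± 0.24 (adjusted p = 0.0182). CA9 had the smallest adjusted p, 0.00121, at 1.08 ± 0.11. Both glycolytic regulators, both carbonic anhydrases, both secreted signals, all 3 stress and mitophagy genes and all 4 collagen enzymes were among those called. Of the 15 glycolytic enzymes 6 were called, namely HK2, PFKL, ALDOA, ALDOC, PGK1 and ENO2. HIF1A had a difference of 0.02 ± 0.05 (adjusted p = 0.907), whereas EPAS1 was called at 0.23 ± 0.05 (adjusted p = 0.0311). The others not called were SLC2A3, HK1, GPI, PFKM, PFKP, TPI1, GAPDH, PGAM1, ENO1, PKM, LDHA, PDK1 and ANKRD37.

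Replicate 1 was the highest of the 3 in all 5 rexinoid groups for 31 members (2.37% of all tested genes) and in all 6 groups for 23 (1.34%). The median log2 difference of replicate 1 from replicate 3 was 0.30 for bexarotene, 0.79 for A34, 0.52 for A41, 0.77 for A80 and 0.28 for A98, against 0.23 with ethanol. For NDRG1 replicate 1 had 1.96 times the replicate 3 level with bexarotene, 4.21 times with A34, 2.57 times with A41, 3.41 times with A80 and 2.04 times with A98, against 1.27 times with ethanol. For CA9 these ratios were 1.91, 2.53, 2.87, 2.17 and 1.496 with the rexinoids in the same order, against 2.11 with ethanol. A difference of these ratios between treatments was not tested, because each holds 1 library of each number.

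**Figure D5:**
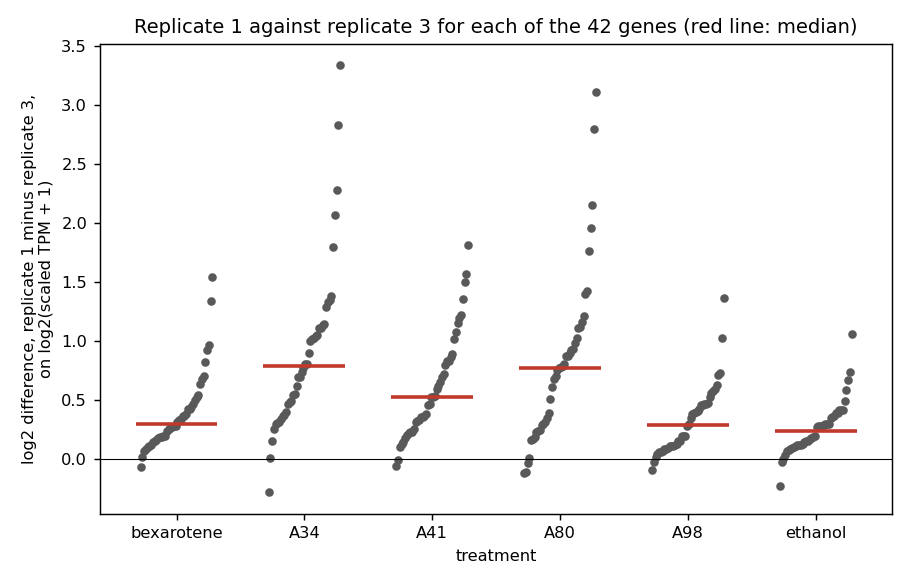
Difference of replicate 1 from replicate 3 on log2(scaled TPM + 1) for each of the 42 genes (points, sorted within each treatment), with the median as a red line. Nearly all points lie above 0 in each treatment, and A34 and A80 have the highest medians, 0.79 and 0.77.

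The count of members higher in number 1 than in number 3 was 12 without the A34 group, 15 without A41 and 13 without A80, where 0.389%, 0.651% and 0.345% of all tested genes were higher. The F test called 1 member without bexarotene (0.0274% of all tested genes), 1 without A34 (0.0219%), 5 without A41 (0.328%) and 0 without A80 (0%). With TPM as deposited both counts of members were 1, against 0.0383% of all tested genes in each. Without the 3 libraries rich in ribosomal RNA, number 1 was higher than number 3 for 23 members (1.06% of all tested genes), and the F test called 4 (0.126%).

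Lists of other genes of the same pathways were examined beside the members, and none of their genes passed limma's threshold against ethanol with any rexinoid or with their mean. Other hypoxia-inducible genes, 36 of 37 of them tested, had medians of 0.32 for bexarotene, 0.62 for A34, 0.19 for A41, 0.65 for A80 and 0.41 for A98, and 23 of them were higher in number 1 than in number 3, as were 1.51% of all tested genes. At an unadjusted limma p under 0.05, 7, 25, 8, 23 and 11 of them were higher in that order of compounds, against 3.11%, 5.57%, 5.39%, 5.36% and 3.39% of all tested genes. At the same level 1, 1, 3, 1 and 1 were lower, against 2.69%, 5.13%, 5.04%, 4.08% and 3.26%. The next 3 genes were chosen after their values were seen. DDIT4, an inhibitor of mTOR signalling, averaged 190.5 with A34 and 219 with A80, against 71.8 scaled TPM with ethanol (mean log2 fold change of the 5 rexinoids 1.09 ± 0.24, SE, adjusted p = 0.0927). ANGPTL4, a lipase inhibitor that is also a target of the PPAR receptors, averaged 137 with A34 and 111 with A80, against 17.9 scaled TPM with ethanol (mean log2 fold change 2.03 ± 0.47, SE, adjusted p = 0.114). TFRC, the transferrin receptor, had a lower mean than ethanol with each of the 5 rexinoids, averaging 117 with A34 and 123 with A80, against 153 scaled TPM with ethanol (mean log2 fold change -0.26 ± 0.06, SE, adjusted p = 0.105).

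The regulators of HIF, such as ARNT and VHL, had medians between 0.0062 and 0.048 over the 5 compounds, with 18 of 19 tested. The ubiquitin ligase SIAH2 was the 1 of them called by replicate number, higher in number 1 than in number 3 by 0.31 ± 0.07 (SE, adjusted p = 0.0328). In that contrast 1.51% of all tested genes were called higher. The rest of glycolysis and pyruvate handling (25 of 32 tested), the pentose phosphate pathway (8 of 9) and the citric acid cycle (21 of 21) had medians between -0.069 and 0.15. In each of these 4 lists at most 3 genes had an unadjusted limma p under 0.05 in any direction and comparison with ethanol. Of all tested genes 2.69% to 5.58% did so in a direction. With A41, 3 of 25 in the rest of glycolysis were lower (5.04% of all tested genes). With A41, 2 of 8 in the pentose phosphate pathway were higher (5.39% of all tested genes). Within the 4 lists the pyruvate dehydrogenase phosphatase PDP1 was lower in number 1 than in number 3, with a log2 difference of -0.34 ± 0.07 (adjusted p = 0.0309), and so was citrate synthase, CS, with -0.19 ± 0.04 (adjusted p = 0.0308). The share of all tested genes called lower in number 1 than in number 3 was 0.405%.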

How the data were processed

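RNA was measured in 18 libraries, 3 for each of 5 rexinoids and ethanol, grouped by the titles. The tools STAR, StringTie and MultiQC and the build GRCh38 are named, per the submitters' processing notes. Versions, annotation release and strand handling were not given in the sources used here. Per the file headers, the authors deposited TPM, FPKM and coverage per gene. TPM was analysed, and FPKM with coverage as deposited served to estimate depth. Without read counts, counting intervals cannot be given. In the names of the deposited tables, A98 appears as A90 and some libraries bear another replicate number than in their titles.

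TPM was divided by median-of-ratios size factors (0.413 to 1.20) over 21776 genes above 0 in every library. Genes reaching 1 TPM in 3 or more libraries were tested with limma 3.58.1 in R 4.3.3 on log2(scaled TPM + 1), with a mean trend, all 18 libraries in 1 fit (12 residual and 3.39 prior degrees of freedom) and Benjamini-Hochberg adjustment over the 18269 genes. A 95% interval is the limma interval. The fit was run on simulated data with known changes, drawn with independent noise of the same spread in every group. That simulation does not cover genes whose spread differs between groups. The replicate number was examined in a model with treatment and number. As a check of pairing, deviations of same-numbered libraries from their group means were correlated across genes. Every pair exceeded 0.1 only between A41 and ethanol (0.17, 0.31 and 0.12 for numbers 1, 2 and 3), where both libraries numbered 2 are rich in ribosomal RNA. Values with a block are given beside the main ones as an alternative. A block takes the shift between numbers as equal in every group, which was not tested.

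The members and lists were chosen with earlier results of these data known. Values in every library are given for 19 members chosen by name, including both HIF alpha genes; others by mean, range or count. Promoters came from RefSeq (GRCh38.p14). Alternatives covered scaling, pseudocount, filters, blocks, libraries rich in ribosomal RNA, single replicates, groups and the libraries numbered 1. The last, and all alternatives for counts of non-overlapping libraries, were added after the data were seen.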

Additional observations from a re-analysis of the deposited data

How the results depend on the processing

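No member passed against ethanol with any single rexinoid or in any pair of rexinoids under other scalings (TPM as deposited, upper quartile), a pseudocount of 0.1, other filters, fits of 2 groups, without the libraries rich in ribosomal RNA or without any single replicate. The tables give no read counts, so the part of depth in the spread of scarce members could not be measured. Leaving out replicates gave 0 to 2 members for the mean of the 5 rexinoids, and medians of 0.17 to 0.32 for bexarotene, 0.37 to 0.82 for A34, -0.0041 to 0.30 for A41, 0.41 to 0.81 for A80, 0.33 to 0.48 for A98 and 0.26 to 0.53 for their mean. Without replicate 1 of every group, which leaves 2 libraries a group, members above every ethanol library numbered 35 with bexarotene, 17 with A41 and 16 over all rexinoids. Of all tested genes 17.6%, 21.7% and 2.56% did so in that order. With A34, A80 and A98 the members numbered 38, 38 and 39, against 18.5%, 20.4% and 20% of all tested genes.

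Under a replicate block taken from the titles, members passed as follows: 18 for A34 (0.843% of all tested genes were higher), 1 for A41 (0.695%), 16 for A80 (0.624%), 13 for the mean of the 5 rexinoids (0.728%) and 8 over the 10 pairs (6 for A80 against A41, where 0.4% of all tested genes were called, and 2 for A41 against A34, where 0.164% were), all of them higher than ethanol or, in pairs, lower with A41 (bexarotene and A98 gave 0). With a replicate block from the file names they were 1 for bexarotene (0.0438% of all tested genes called), 9 for A34 (0.296%), 1 for A41 (0.662%), 10 for A80 (0.257%), 3 for A98 (0.0821%), 9 for the mean of the 5 rexinoids (0.509%) and 7 over the pairs (5 for A80 against A41, 0.367%, and 2 for A41 against A34, 0.104%). Every pair of same-numbered libraries correlated above 0.1 only between A41 and ethanol, and 9 of 18 libraries correlated best with a library of their own number.

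With TPM as deposited the median was 0.056 for bexarotene and -0.16 for A41. Against ethanol it turned EPAS1 (-0.050), SLC2A3 (-0.027), HK2 (-0.047), PFKFB3 (-0.015) and GAPDH (-0.11) for bexarotene, HIF1A for A34 (0.059) and A80 (0.023), and for A41 EPAS1 (-0.22), SLC2A1 (-0.27), SLC2A3 (-0.25), HK2 (-0.26), PGK1 (-0.14), GAPDH (-0.24), LDHA (-0.23), PDK1 (-0.054), BNIP3 (-0.11), P4HA1 (-0.26) and ANKRD37 (-0.16). Without the libraries rich in ribosomal RNA, GAPDH for bexarotene (-0.058) and PFKFB3 for A41 (0.043) turned, and the file-name block turned LDHA for bexarotene (0.054). Leaving out replicates turned, over the ranges given, for bexarotene HIF1A (-0.044 to 0.027), LDHA (-0.098 to 0.032) and SLC2A3 (-0.0053 to 0.24), for A34 ANKRD37 (-0.039 to 0.41), and for A41 SLC2A1 (-0.31 to 0.29), SLC2A3 (-0.13 to 0.18), HK2 (-0.10 to 0.17), PGK1 (-0.021 to 0.33), LDHA (-0.14 to 0.31), BNIP3 (-0.19 to 0.45), P4HA1 (-0.23 to 0.24), ANKRD37 (-0.21 to 0.17) and PFKFB3 (-0.20 to 0.063). None of these values passed the threshold. Of 1799 values of the named members under an alternative, 1702 kept direction and side, 47 came to pass and 50 turned.

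By replicate number, with the share of all tested genes called beside each count, the F test called 1 member with TPM as deposited (0.0383%), 1 with no filter (0.0169%), 4 when libraries rich in ribosomal RNA were left out (0.126%), 6 with the numbers in the file names (0.268%), 1 without bexarotene (0.0274%), 1 without A34 (0.0219%), 5 without A41 (0.328%) and 0 without A80 (0%). Number 1 minus 3 called 1 with TPM as deposited (0.0547%), 13 with no filter (0.195%), 12 without A34 (0.443%), 15 without A41 (0.761%) and 13 without A80 (0.383%). Number 1 minus 2 called 9 with the filter at 5 TPM (0.433%), 2 without A98 (0.0219%), 3 without ethanol (0.0383%), 0 without A41 (0.00547%), and 0 members and 0% of all tested genes with TPM as deposited, with no filter, without the libraries rich in ribosomal RNA and without bexarotene, A34 or A80. The cause of these shifts was not tested.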
